A study of Mus musculus with 8 samples.

Results

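Neurotrophic factors are secreted proteins that keep neurons alive and shape their connections. The genes followed here were 4 such factors, Bdnf, Ntf3, Gdnf and Cntf, and 5 receptor genes, Ntrk2, Ntrk3, Ret, Gfra1 and Gfra2, in the striatum of mice given the neurotoxin MPTP. Members were the probe sets to which the platform's annotation gives 1 of these symbols and no other. Of the 9 genes, 7 had such a probe set, 1 each, among 16342 tested probe sets for 14890 genes, and all 7 passed the filter on dim values. For Cntf, the annotated probe set carried 3 gene symbols, and no probe set was listed under Ntf3, so neither gene has a value here.

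RNA from the bilateral striata of 8 male C57BL/6 mice, 6 weeks old, was hybridised to 1 whole-transcript gene array per mouse, in 4 groups of 2. The MPTP mice received 20 mg/kg MPTP by intraperitoneal injection every 24 h for 4 weeks. The acupoint mice received the same MPTP and were needled by hand at the acupoints GB34, to a depth of 3 mm, and LR3, to 1 mm, in 14 sessions 48 h apart, and the non-acupoint mice received MPTP and were needled at both hips, to 3 mm, on the same schedule. Needling had a delay of 2 h after MPTP in both needled groups. Control mice received daily saline for 4 weeks and no needling. The 3 MPTP-treated groups therefore share the toxin, and no group was needled without it. The comparisons ask whether these genes differed after MPTP, and whether needling on top of MPTP, or its site, moved them. The strain is inbred, and nothing in the labels describes an altered gene. MPTP damages the dopamine axons that reach the striatum from the substantia nigra, and their cell bodies lie outside the dissected tissue.

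BDNF and NT-3, the products of Bdnf and Ntf3, are neurotrophins. BDNF signals through the receptor tyrosine kinase TrkB, encoded by Ntrk2, and NT-3 mainly through TrkC, encoded by Ntrk3. GDNF binds the membrane-anchored co-receptor GFRA1, the related factor neurturin prefers GFRA2, and each complex activates the receptor tyrosine kinase RET. CNTF acts through CNTFR together with LIFR and the shared subunit IL6ST. Much of the BDNF protein of the striatum is made in cortical neurons and carried there along their axons, while dopamine neurons of the substantia nigra express RET and GFRA1 and respond to GDNF released in the striatum.

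Activity-dependent transcription of Bdnf is a textbook case of control through a cAMP response element, so the promoter windows of the ligands were searched for the 6 bases ACGTCA on both strands (TGACGT on the other), letters that were chosen after the windows had been seen. The RefSeq promoter table (GRCm38.p6) held 14 windows for 6 of the 9 genes, and the 250 bases before each annotated start were used. The match occurred in 1 of 7 Bdnf windows and 1 of 2 Gdnf windows, against 6.47% of all 32851 windows. It overlapped no TATAAA, the other motif searched, which was present in that Gdnf window and in 12.4% of all windows. The windows of Ntrk2, Gfra1, Ntf3 and Cntf held neither set of letters. Both ligand windows are shown because Bdnf is set against activity-induced regulators below, with the match in capitals. They lie on the plus strand at chr2:109692186-109692435 and chr15:7809798-7810047.
Bdnf: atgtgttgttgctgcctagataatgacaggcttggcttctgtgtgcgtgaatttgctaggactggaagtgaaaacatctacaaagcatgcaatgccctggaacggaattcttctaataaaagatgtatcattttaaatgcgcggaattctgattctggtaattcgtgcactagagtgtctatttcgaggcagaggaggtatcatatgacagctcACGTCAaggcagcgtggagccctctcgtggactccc
Gdnf: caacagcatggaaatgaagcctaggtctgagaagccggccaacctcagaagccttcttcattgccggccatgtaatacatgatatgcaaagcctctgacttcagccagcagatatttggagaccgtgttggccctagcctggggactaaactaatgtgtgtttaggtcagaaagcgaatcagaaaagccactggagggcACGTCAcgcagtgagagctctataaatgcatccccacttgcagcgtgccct
In the Bdnf window the match begins 36 bases before the start, and in the Gdnf window 51 bases before it. A match is a description of letters, and binding was not measured.

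The deposited values are log2 RMA values, and each probe set has its own scale, so levels are compared between arrays and never between genes. Array medians lay between 6.02 and 6.12. The 2 MPTP arrays were the least alike of any group: they differed by at least 1 log2 unit in 5.07% of tested probe sets, and the controls in 0.00612%. Values of marker lists below are means over genes of the log2 difference from the control mean. Over 8 of 10 striatal projection neuron markers that were measured, MPTP mice 1 and 2 stood at -2.24 and 0.35, acupoint mice at -0.18 and 0.24 and non-acupoint mice at -0.18 and -0.70. Thalamus, septum and pallidum are neighbours of the striatum, and over all 10 of their markers MPTP mice stood at 2.34 and -0.70, acupoint mice at 0.75 and -0.11, non-acupoint mice at 0.30 and 1.60, and controls at -0.02 and 0.02. MPTP mouse 1 thus had the lowest striatal and the highest bordering-region marker mean of the 8 arrays. In bulk tissue, fewer cells of a type and less RNA per cell cannot be told apart.

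**Figure D1:**
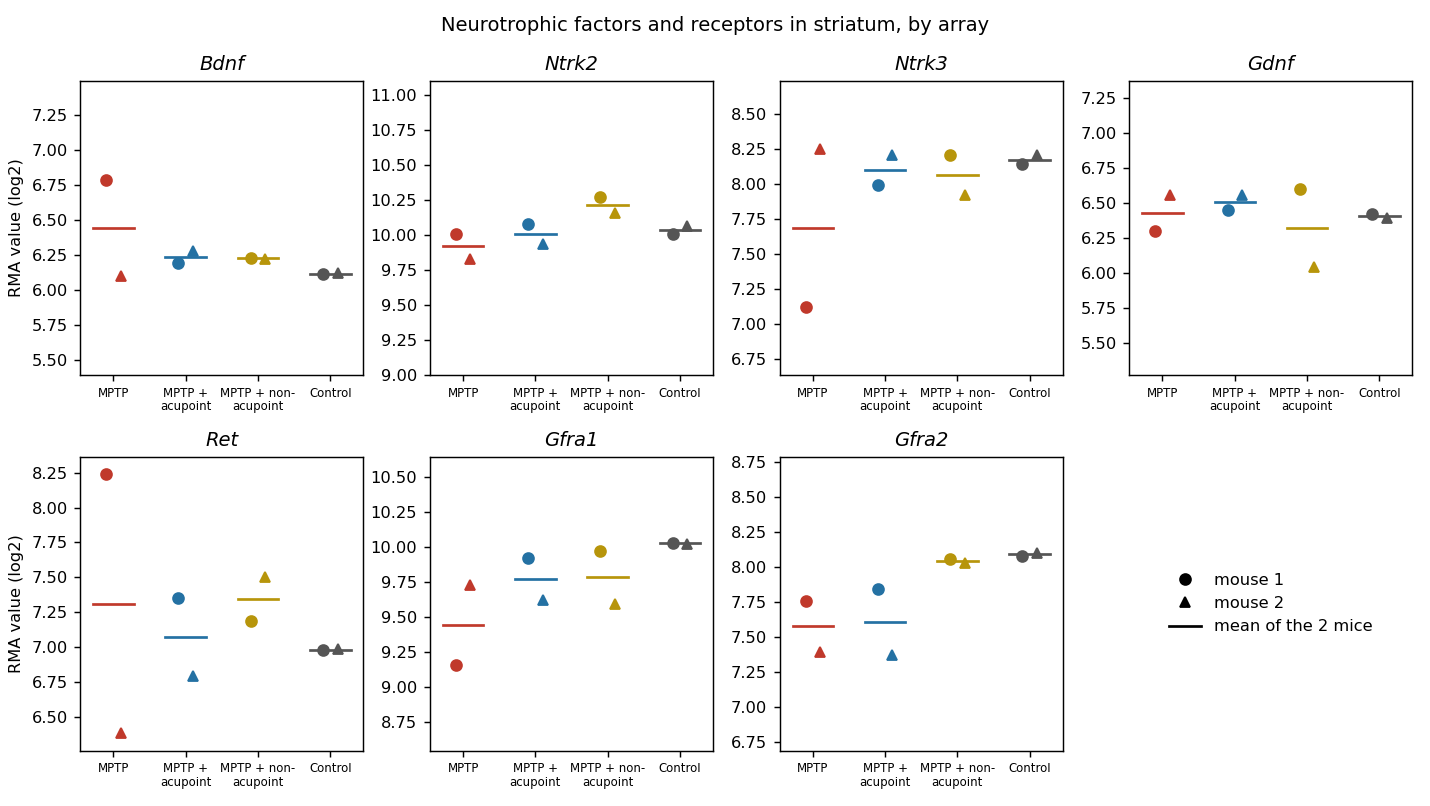
Log2 RMA value of each measured member (vertical axes, all of the same span but placed at different levels) in the MPTP, MPTP plus acupoint, MPTP plus non-acupoint and control groups. Circles are mouse 1, triangles mouse 2 and lines the mean of both. Ret, Ntrk3 and Bdnf separate the 2 MPTP mice, while Gfra1 and Gfra2 lie below both controls in all 6 MPTP-treated mice, as did 3.56% of all probe sets.

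Bdnf was nearly flat across the arrays except in 1 mouse. Its log2 value (probe set 10474399) was 6.79 and 6.10 in MPTP mice, 6.19 and 6.28 in acupoint mice, 6.23 and 6.22 in non-acupoint mice, and 6.11 and 6.12 in controls. MPTP mouse 1 stood 0.67 above the control mean, whereas MPTP mouse 2 stood 0.02 below it, so the MPTP mice lay on either side of the controls. The log2 change in MPTP mice against controls was 0.33 (SE 0.21, limma, adjusted p = 0.93, 95% interval -0.16 to 0.81). Without MPTP mouse 1 it was -0.02, and without MPTP mouse 2, when mouse 1 alone stands for its group, it was 0.67. All 4 needled mice lay above both controls, with log2 changes of 0.12 for acupoint and 0.11 for non-acupoint mice (SE 0.21 each, limma, adjusted p = 1 and 0.91). Of all probe sets, 33.9% did not overlap between acupoint mice and controls, and 49.5% between non-acupoint mice and controls. The SE is pooled over the 4 groups and so takes in the gap of 0.69 between the 2 MPTP mice. Against MPTP alone the changes were -0.21 for acupoint and -0.22 for non-acupoint needling. Both turned positive without MPTP mouse 1, while without MPTP mouse 2 they were -0.55 and -0.56.

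Gdnf varied most between the 2 non-acupoint mice. Its log2 value (probe set 10422844) was 6.30 and 6.56 in MPTP mice, 6.45 and 6.56 in acupoint mice, 6.60 and 6.05 in non-acupoint mice, and 6.42 and 6.40 in controls. The non-acupoint group held both the highest and the lowest of the 8 values, and the MPTP mice lay on either side of the controls. The log2 change was 0.02 in MPTP mice against controls (SE 0.19, limma, adjusted p = 0.99, 95% interval -0.42 to 0.46), and 0.10 in acupoint mice against controls (SE 0.19, limma, adjusted p = 1), where both acupoint mice lay above both controls. Acupoint mice and controls did not overlap in 33.9% of all probe sets. No difference in Gdnf exceeded the spread between mice.

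Ntrk2, the gene of the BDNF receptor TrkB, was the member whose values differed least across the 8 arrays, with a range of 0.44. Its log2 value (probe set 10405633) was 10.01 and 9.83 in MPTP mice, 10.08 and 9.93 in acupoint mice, 10.27 and 10.16 in non-acupoint mice, and 10.01 and 10.06 in controls. Both non-acupoint mice lay above all other arrays. Their log2 change was 0.29 against MPTP mice (SE 0.11, limma, unadjusted p = 0.0325, adjusted p = 0.74) and 0.18 against controls (SE 0.11, adjusted p = 0.78), and acupoint minus non-acupoint was -0.21 (SE 0.11, adjusted p = 0.96). None of these passed the adjusted threshold. The mean of 3 markers of oligodendrocyte precursors followed a like order: 0.04 and -0.13 in MPTP mice, 0.04 and -0.08 in acupoint mice, 0.10 and 0.23 in non-acupoint mice, and -0.04 and 0.04 in controls. Of its genes, Pdgfra and Gpr17 were higher in both non-acupoint mice than in both controls. Cspg4 was highest in MPTP mouse 1, at 6.75. In non-acupoint mouse 1 it was 6.41, below the controls at 6.45 and 6.52. Over the 8 arrays Spearman's rho of this 3-marker mean with Ntrk2 was 0.976 (exact permutation p = 0.000397, adjusted p = 0.0111 over 84 relations between members and marker lists) and Pearson's r was 0.847 (exact permutation p = 0.0105, adjusted p = 0.126), or 0.86 without MPTP mouse 2 and non-acupoint mouse 2. The 2 non-acupoint mice were highest by either measure, so the relation includes a difference between groups. Other lists also tracked Ntrk2 in rank without passing adjustment. Spearman's rho was 0.857 with astrocyte markers (exact permutation p = 0.0107, adjusted p = 0.161), 0.786 with ependymal markers (exact permutation p = 0.0279, adjusted p = 0.257) and -0.738 with striatal projection neuron markers (exact permutation p = 0.0458, adjusted p = 0.257). Pearson's r was 0.792 (exact permutation p = 0.0197, adjusted p = 0.134), 0.663 (exact permutation p = 0.0712, adjusted p = 0.23) and -0.197 (exact permutation p = 0.588, adjusted p = 0.736) with the same 3 lists. Without the 2 arrays farthest from each list's median r was 0.627, 0.9 and -0.905. The part of these cell types in the Ntrk2 values was not tested.

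Ntrk3, the gene of the NT-3 receptor TrkC, was low in a single array. Its log2 value (probe set 10564667) was 7.12 and 8.25 in MPTP mice, 8.00 and 8.21 in acupoint mice, 8.21 and 7.93 in non-acupoint mice, and 8.15 and 8.21 in controls. MPTP mouse 1 stood 1.06 below the control mean, and the other 7 arrays lay within 7.93 to 8.25. The log2 change in MPTP mice against controls was -0.49 (SE 0.33, limma, adjusted p = 0.93, 95% interval -1.27 to 0.29). Without MPTP mouse 1 it was 0.08, and without MPTP mouse 2, when mouse 1 alone stands for its group and is assumed to vary like the other groups, it was -1.06 (adjusted p = 0.011). Against MPTP alone the change was 0.42 for acupoint and 0.38 for non-acupoint needling (SE 0.33 each, limma, adjusted p = 0.90 and 0.81). These were 0.98 and 0.95 without MPTP mouse 2 (adjusted p = 0.015 and 0.025), and -0.15 and -0.19 without MPTP mouse 1.

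Ret, the kinase shared by the GDNF family receptors, had the widest range of the members, 1.85. Its log2 value (probe set 10547227) was 8.24 and 6.39 in MPTP mice, 7.35 and 6.79 in acupoint mice, 7.19 and 7.51 in non-acupoint mice, and 6.98 and 6.99 in controls. The MPTP group held both the highest and the lowest array, on either side of the controls. Its log2 change in MPTP mice was 0.33 (SE 0.53, limma, adjusted p = 0.95, 95% interval -0.93 to 1.59), and it was -0.60 without MPTP mouse 1 but 1.25 without MPTP mouse 2. Against MPTP alone it was -0.24 for acupoint needling (SE 0.53, adjusted p = 0.95), which turned to 0.69 without MPTP mouse 1 and was -1.16 without MPTP mouse 2. For non-acupoint needling it was 0.03 (SE 0.53, adjusted p = 0.99), or 0.96 without MPTP mouse 1 and -0.89 without MPTP mouse 2. Both non-acupoint mice lay above both controls, with a log2 change of 0.36 (SE 0.53, limma, adjusted p = 0.89). Non-acupoint mice and controls did not overlap in 49.5% of all probe sets.

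The arrays had the same order by Ret as by the bordering-region marker mean. Over the 8 arrays Pearson's r was 0.971 (exact permutation p = 2.48e-05, adjusted p = 0.00208 over the 84 relations of 7 members with 12 marker lists). Spearman's rho was 1 (exact permutation p = 4.96e-05, the smallest that the ranks of 8 arrays allow, adjusted p = 0.00417). After MPTP mouse 1 and non-acupoint mouse 2, the arrays farthest from the median of the markers, were left out, r was 0.979. With the striatal projection neuron markers r was -0.94 (exact permutation p = 7.44e-05, adjusted p = 0.00313, rho -0.976, exact permutation p = 0.000397) and -0.956 without the same 2 arrays. Ntrk3 ran the opposite way to Ret. Its r was -0.891 with the bordering-region markers (exact permutation p = 0.000397, adjusted p = 0.0111, rho -0.833, exact permutation p = 0.0154) and -0.815 without the same 2 arrays, and its r with the striatal markers was 0.978 (exact permutation p = 0.00114, adjusted p = 0.024, rho 0.738, exact permutation p = 0.0458) but 0.61 without them. The rank relations of Ntrk3 did not pass adjustment (adjusted p = 0.161 and 0.257). The marker means differed within groups as well as between them, and the 8 mice had different treatments. The part of the dissected region in the levels of Ret and Ntrk3 was not tested.

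**Figure D2:**
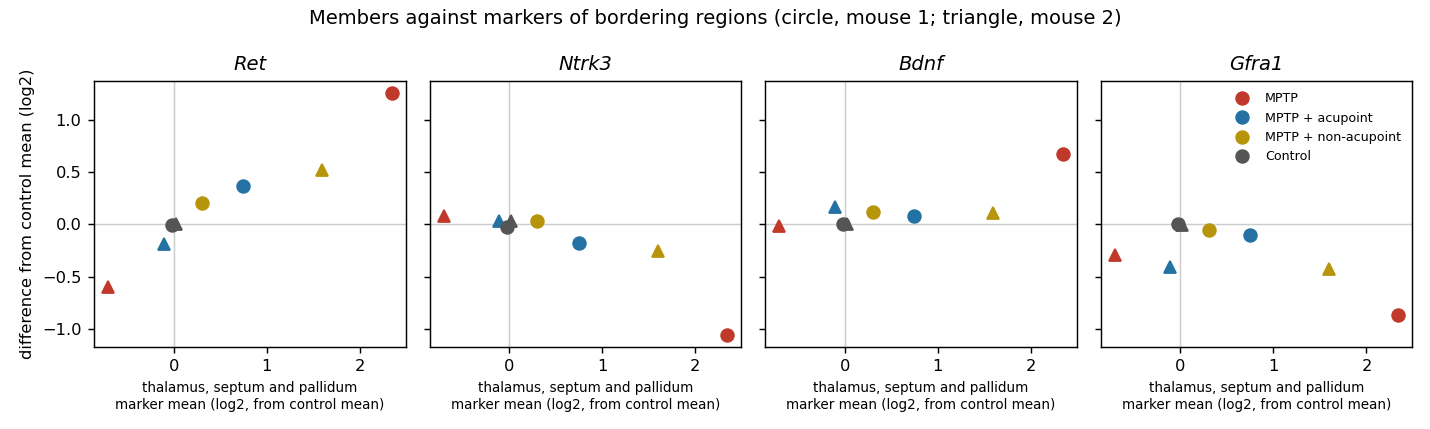
Log2 difference from the control mean of Ret, Ntrk3, Bdnf and Gfra1 (vertical axis) against the mean log2 difference of 10 markers of thalamus, septum and pallidum (horizontal axis). Each point is 1 array, coloured by group, circles for mouse 1 and triangles for mouse 2. Ret climbs with the markers over the whole range, while the Bdnf point of MPTP mouse 1, at 0.67, lies apart from 7 near-level points.

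The co-receptor genes Gfra1 and Gfra2 had lower values in each of the 6 MPTP-treated mice than in both controls, a pattern that 3.56% of all probe sets shared. Gfra1 (probe set 10468722), whose product binds GDNF, was 9.16 and 9.73 in MPTP mice, 9.92 and 9.62 in acupoint mice, 9.97 and 9.60 in non-acupoint mice, and 10.03 and 10.02 in controls. MPTP mouse 1 was the lowest and non-acupoint mouse 1 came nearest to the controls, 0.05 below their mean. Gfra2 (probe set 10416340), whose product binds neurturin, was 7.76 and 7.39 in MPTP mice, 7.85 and 7.37 in acupoint mice, 8.06 and 8.03 in non-acupoint mice, and 8.08 and 8.10 in controls. The MPTP and acupoint mice lay apart from the controls, and the non-acupoint mice lay just under them.

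For Gfra1 the log2 change in MPTP mice against controls was -0.58 (SE 0.22, limma, unadjusted p = 0.0324, adjusted p = 0.93, 95% interval -1.10 to -0.07). It was -0.26 in acupoint and -0.24 in non-acupoint mice against controls (SE 0.22 each, adjusted p = 1 and 0.82). Over all 6 MPTP-treated mice it was -0.36 (SE 0.18, adjusted p = 0.98). Without MPTP mouse 1 the change in MPTP mice was -0.30, and without MPTP mouse 2 it was -0.87. MPTP mouse 1, the lowest array for Gfra1, had the striatal markers at -2.24. Over the 8 arrays Gfra1 had r = 0.771 with the striatal markers (exact permutation p = 0.0506, adjusted p = 0.203), and -0.764 without MPTP mouse 1 and non-acupoint mouse 2. With the bordering-region markers r was -0.686 (exact permutation p = 0.058, adjusted p = 0.203), and 0.474 without the same 2 arrays. The part of the dissected region in the Gfra1 values was not tested.

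For Gfra2 the log2 change in MPTP mice against controls was -0.51 (SE 0.18, limma, unadjusted p = 0.0254, adjusted p = 0.93, 95% interval -0.94 to -0.08). It was -0.48 in acupoint mice against controls (SE 0.18, adjusted p = 1) and -0.05 in non-acupoint mice (SE 0.18, adjusted p = 0.96). Non-acupoint mice were higher than MPTP mice by 0.47 (SE 0.18, limma, unadjusted p = 0.0372, adjusted p = 0.74), acupoint mice stood 0.03 above MPTP mice (SE 0.18, adjusted p = 0.98), and acupoint minus non-acupoint was -0.43 (SE 0.18, unadjusted p = 0.049, adjusted p = 0.96). These comparisons share arrays. The moderated F-test over the 4 groups gave an unadjusted p of 0.0452 and an adjusted p of 0.92 for Gfra2 (limma). The lowest arrays for Gfra2, MPTP mouse 2 and acupoint mouse 2, also had the lowest bordering-region marker means and the lowest astrocyte marker means. Over 7 genes the astrocyte means were 0.01 and -0.20 in MPTP mice, 0.04 and -0.16 in acupoint mice, 0.03 and 0.18 in non-acupoint mice, and 0.004 and -0.004 in controls. Gfra2 had r = 0.808 with them (exact permutation p = 0.0224, adjusted p = 0.134, rho 0.31, exact permutation p = 0.462), and 0.795 without MPTP mouse 2 and non-acupoint mouse 2. With the bordering-region markers the r of Gfra2 over the 8 arrays was only 0.278 (exact permutation p = 0.521, adjusted p = 0.674, rho 0.19, exact permutation p = 0.665). The part of either marker list in the Gfra2 values was not tested.

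**Figure D3:**
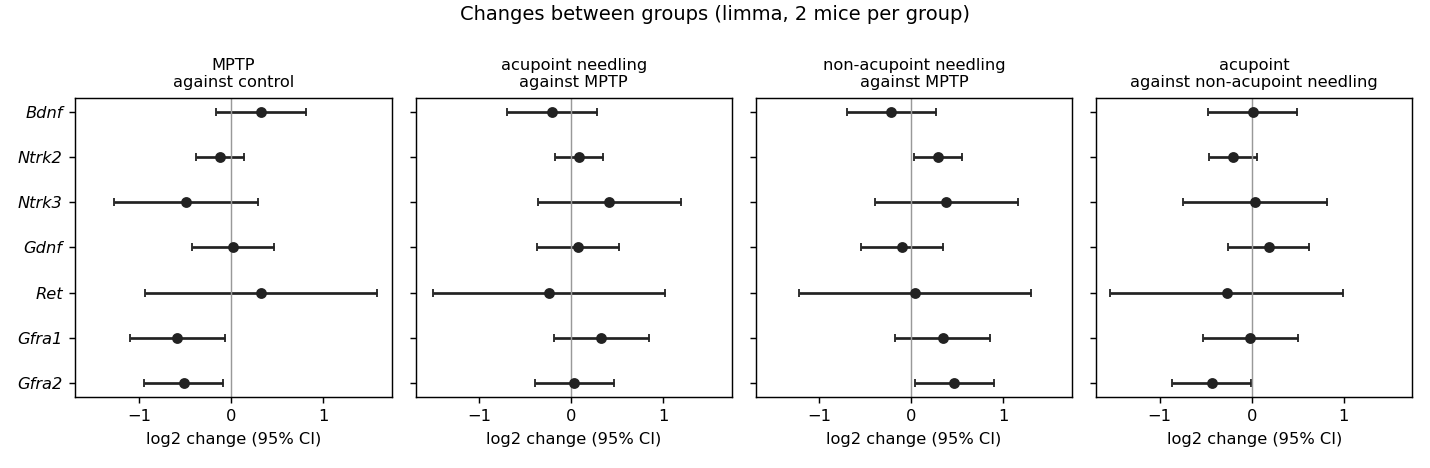
Log2 change of each measured member (points) with its 95% confidence interval (bars) by limma, in 4 comparisons of 2 mice against 2. The intervals of Gfra1 and Gfra2 lie below 0 in MPTP mice against controls and those of Ntrk2 and Gfra2 above 0 in non-acupoint against MPTP mice, before adjustment over 16342 probe sets.

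No member passed the adjusted threshold of 0.05 in any comparison or in the F-test, where limma called 0 of 16342 probe sets (percent called 0). At an unadjusted p under 0.05, 2 of the 7 members were called in MPTP mice against controls (Gfra1 and Gfra2, both lower), where 3.99% of all probe sets were. The same count was 0 of 7 for acupoint against MPTP mice (3.6% of all probe sets), 2 of 7 for non-acupoint against MPTP mice (Ntrk2 and Gfra2, both higher; 6.58%), 1 of 7 for acupoint against non-acupoint mice (Gfra2, lower; 3.22%), 1 of 7 for acupoint mice against controls (Gfra2, lower; 1.91%), 0 of 7 for non-acupoint mice against controls (6.05%) and 0 of 7 for all MPTP-treated mice against controls (3.38%). In the F-test it was 1 of 7 (3.71%). Groups did not overlap for 2 of 7 members in MPTP mice against controls (29.3% of all probe sets), 0 of 7 in acupoint against MPTP mice (27.3%), 2 of 7 in non-acupoint against MPTP mice (33.1%) and 2 of 7 in acupoint against non-acupoint mice (38.5%). Against controls they did not overlap for 4 of 7 in acupoint mice (33.9%) and 5 of 7 in non-acupoint mice (49.5%). For all MPTP-treated mice against controls 2 of 7 members, Gfra1 and Gfra2, did not overlap (7.28% of all probe sets), and both were lower (3.56% of all probe sets). The median log2 change of the 7 members was -0.12 in MPTP mice against controls, beside 0.01 over all probe sets, 0.08 beside -0.04 for acupoint against MPTP mice, and 0.29 beside -0.01 for non-acupoint against MPTP mice.

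**Figure D4:**
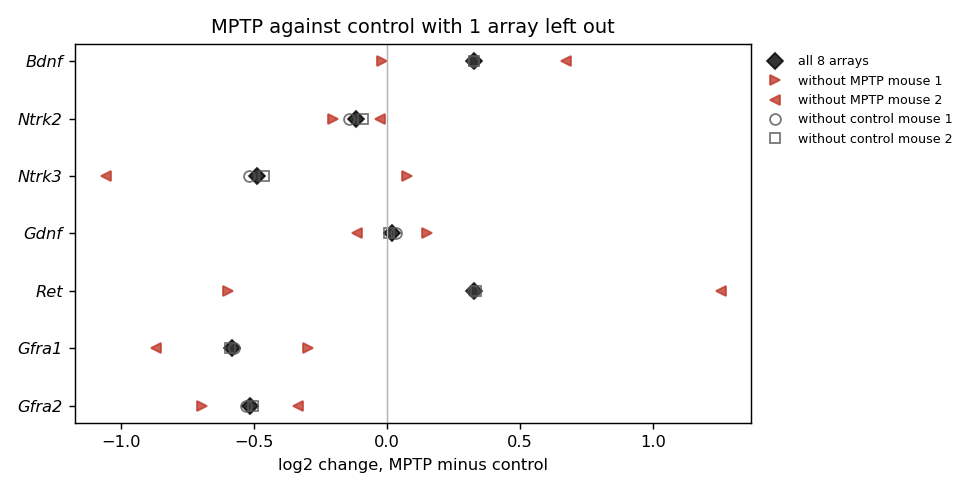
Log2 change in MPTP mice against controls (horizontal axis) for each measured member with all 8 arrays (diamonds) and with 1 MPTP array (red) or 1 control array (grey, open) left out. The Ret change is 1.25 without MPTP mouse 2 and -0.60 without MPTP mouse 1, while Gfra1 and Gfra2 stay below 0 whichever of these arrays is left out.

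Among the members themselves, 21 pairs were compared over the 8 arrays. Ret and Ntrk3 had r = -0.9 (exact permutation p = 0.000521, adjusted p = 0.0109, rho -0.833, exact permutation p = 0.0154, adjusted p = 0.229), and r = -0.733 without MPTP mouse 1 and non-acupoint mouse 2. No other pair passed adjustment. Bdnf and Ntrk3 had r = -0.936 (exact permutation p = 0.0336, adjusted p = 0.118), which came to -0.0767 without the 2 MPTP arrays and so rested on them. Gfra1 and Gfra2 had r = 0.445 (exact permutation p = 0.27, adjusted p = 0.525) and rho = 0.714 (exact permutation p = 0.0576, adjusted p = 0.364). Their r was 0.977 without MPTP mouse 1 and non-acupoint mouse 2, so it depended on those arrays.

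The genes whose values were most like a member's were ranked by Pearson's r over the 8 arrays among 13995 other genes. The highest r is a maximum over that many genes and is given as a description. For Ret they were Zfp423, a zinc finger transcription factor (r = 0.994, and 0.98 without the 2 arrays farthest from the median of Ret), Laptm4b and the presenilin gene Psen2. For Ntrk3 they were Cacna1e, a voltage-gated calcium channel subunit (0.997, and 0.974 likewise), Trerf1 and the receptor gene Gpr26. For Gfra1 they were the transcription factor genes Dlx2 (0.978, and 0.968 likewise) and Lhx8 (0.968) and the membrane protein gene Ly6h (0.972). For Gfra2 they were Tgfb1i1, Ccdc170 and Tnfrsf21 (0.97, 0.965 and 0.958). For Ntrk2 they were Trim44, the diacylglycerol kinase gene Dgkk and the transporter gene Slc12a7 (0.98, 0.972 and 0.965). For Gdnf they were the transcription factor gene Sall4, Zdhhc19 and Meak7 (0.969, 0.96 and 0.958). For Bdnf they were the phosphatase subunit gene Ppp2cb, the thioredoxin gene Txn1 and B3gat3 (0.985, 0.982 and 0.982), and these came to between 0.799 and 0.803 without the 2 MPTP arrays. Lhx8 also belongs to the list of 6 cholinergic and GABA interneuron markers. With the mean of that list Gfra1 had r = 0.776 (exact permutation p = 0.0976, adjusted p = 0.273) and rho = 0.0714 (exact permutation p = 0.882). That r was -0.0727 without MPTP mouse 1 and control mouse 2.

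Bdnf was set against 9 measured regulators and companions of its activity-dependent transcription. In MPTP mice against controls 8 of the 9 had lower means, with a median log2 change of -0.82, and 0 passed the adjusted threshold, while 5 had an unadjusted p under 0.05 by limma, all lower (3.99% of all probe sets had such a p). The list was chosen with earlier results of these data known, so this count is a description. Npas4, a neuronal transcription factor that binds Bdnf promoters, had log2 values of 5.95 and 6.55 in MPTP mice, 6.80 and 6.76 in acupoint mice, 6.99 and 7.09 in non-acupoint mice, and 7.93 and 7.95 in controls. Every MPTP-treated mouse was below both controls, a pattern that 3.56% of all probe sets shared. The log2 change in MPTP mice was -1.69 (SE 0.19, limma, adjusted p = 0.46). Arc, a synaptic protein gene, had a log2 change of -1.42 (SE 0.22, adjusted p = 0.93) and Fos one of -0.82 (SE 0.18, adjusted p = 0.93). In the arrays in which Npas4, Arc and Fos were below controls, Bdnf was between 0.02 below and 0.67 above the control mean, and its highest value fell in MPTP mouse 1, the array with the lowest Npas4 and Arc. That array also had the striatal projection neuron markers at -2.24 and the bordering-region markers at 2.34. Over the 8 arrays Bdnf had r = -0.92 with the striatal markers (exact permutation p = 0.0324, adjusted p = 0.182, rho -0.619, exact permutation p = 0.115), and -0.174 without MPTP mouse 1 and non-acupoint mouse 2, so this relation rested on those arrays. The part of the dissected region in these values was not tested. Arc was higher in acupoint than in MPTP mice by 0.69 (SE 0.22, adjusted p = 0.90), and Npas4 in non-acupoint than in MPTP mice by 0.79 (SE 0.19, adjusted p = 0.61). Without MPTP mouse 2, when mouse 1 alone stands for its group, the changes against controls were -1.99 for Npas4 and -1.78 for Arc. The needling changes were then 1.06 for Arc and 1.09 for Npas4. Without MPTP mouse 1 the needling changes were 0.33 for Arc and 0.49 for Npas4, and the changes against controls were -1.06 for Arc and -1.39 for Npas4.

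**Figure D5:**
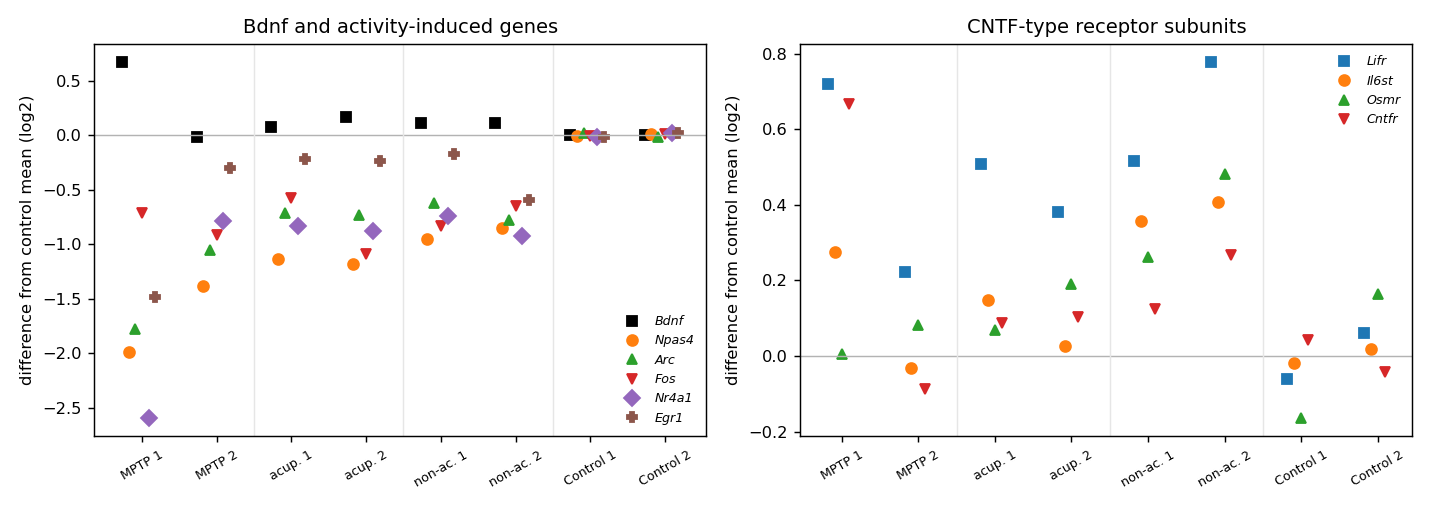
Log2 difference from the control mean by array, in the MPTP, acupoint (acup.), non-acupoint (non-ac.) and control mice. The left panel holds Bdnf and 5 activity-induced genes, and the right panel 4 receptor subunits of the CNTF family, of which Nr4a1, Egr1 and the 4 subunits were chosen for display after their values were seen. Npas4, Arc, Fos, Nr4a1 and Egr1 lie below 0 in all 6 MPTP-treated mice and Lifr above 0. Of all probe sets, 3.56% lay below both controls in all 6 of these mice and 3.72% above both.

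Around the members, 65 of 76 listed genes of the same pathways were tested, and 0 passed the adjusted threshold in any comparison. Over these 65, the median log2 change was -0.03 in MPTP mice against controls, with 2 higher and 7 lower at an unadjusted p under 0.05 (3.99% of all probe sets had such a p), and 30.8% had groups that did not overlap (29.3% of all probe sets). The 7 neurotrophin ligands and receptors, which include the low-affinity receptor Ngfr and the sorting receptor Sort1, had a median of -0.06, and the 15 adaptors of Trk and RET signalling one of 0.01. The 6 neurotrophin processing enzymes had a median of -0.04 and the 7 other GDNF family genes one of 0.07. In none of these 4 lists did more than 1 gene have an unadjusted p under 0.05 in this comparison.

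For acupoint against MPTP mice 4 of the 65 had an unadjusted p under 0.05, where 3.6% of all probe sets did, and for non-acupoint against MPTP mice 7 did, where 6.58% of all probe sets did. Met, the receptor of hepatocyte growth factor, was 5.47 and 5.70 in MPTP mice, 7.02 and 6.11 in acupoint mice, 7.15 and 7.42 in non-acupoint mice, and 6.62 and 6.90 in controls. The MPTP mice had the lowest values of all arrays. Its log2 change was 0.98 for acupoint against MPTP mice (SE 0.28, limma, adjusted p = 0.90), or 0.53 without acupoint mouse 1 and 1.44 without acupoint mouse 2. It was 1.70 for non-acupoint against MPTP mice (SE 0.28, adjusted p = 0.52), or 1.81 without MPTP mouse 2. Dok5, an adaptor of Trk and RET kinases, was lower in acupoint than in MPTP mice, at -0.34 (SE 0.11, adjusted p = 0.90). Fgf2, a growth factor gene, was higher in non-acupoint than in MPTP mice, at 0.39 (SE 0.11, adjusted p = 0.64).

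Of the 5 measured CNTF family genes other than Cntf, Lifr, the receptor subunit that CNTF shares with LIF, was singled out after its values were seen. It had log2 values of 8.63 and 8.13 in MPTP mice, 8.41 and 8.29 in acupoint mice, 8.42 and 8.68 in non-acupoint mice, and 7.84 and 7.97 in controls. All 6 MPTP-treated mice were above both controls, a pattern that 3.72% of all probe sets shared, and the log2 change over them was 0.52 (SE 0.15, limma, unadjusted p = 0.00952, adjusted p = 0.98). The partner subunit gene Il6st, also chosen after its values were seen, was 9.98 and 10.03 in non-acupoint mice against 9.60 and 9.64 in controls, a log2 change of 0.38 (SE 0.12, limma, adjusted p = 0.77). Choroid plexus markers, over 9 of 10 listed genes, were 2.41 and -0.22 in MPTP mice, 2.61 and 0.12 in acupoint mice, 2.39 and 3.04 in non-acupoint mice, and 0.01 and -0.01 in controls. Their part in the Lifr and Il6st values was not tested.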

How the data were processed

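Striatal RNA of 8 mice, 300 ng each, was labelled and hybridised to whole-transcript arrays, per the labels' protocols. Per the submitters' processing notes, the authors ran RMA in Affymetrix Expression Console; versions and genome build are not given in the sources used here. The deposited values are log2 and were used as they stand, and quantile normalisation within RMA would hide a shift shared by most genes. Symbols came from the platform's gene table: 21789 of 35557 probe sets had 1 symbol, 1621 several and 12147 none listed. By gene ID 21698 matched the RefSeq gene table, which changed 0 symbols. Probe sets with 1 symbol and a mean log2 value of 5.25 or more (their 25th percentile) entered 1 linear model with a term per group, fitted in limma 3.58.1 (R 4.3.3), with 4 residual and 2.94 prior degrees of freedom. Benjamini-Hochberg adjustment ran over 16342 probe sets, at a threshold of 0.05. No detection call came with the values, and the number of arrays limits their precision. Exact permutation of 2 arrays against 2 gives a two-sided p of 0.333 at best, which is why single genes were tested in the model. Correlations had two-sided exact permutation p-values, with all 8 arrays exchanged freely across the 4 groups. These p-values therefore do not separate differences between groups from relations between mice. The model fit was tested on simulated data and the permutation p on a case with a known answer.

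The labels number the animals as separate mice, and the limma p-values rest on a spread between mice that is pooled over the 4 groups. Comparisons without the MPTP group therefore also take in the gap between the 2 MPTP mice. That gap was 0.69 for Bdnf and 1.85 for Ret, beside 0.005 and 0.01 between the controls. Such p-values do not measure the spread of the compared mice alone. All members were named. From the pathway lists the text named up to 3 genes with the smallest p in each of the first 3 comparisons, and genes named outside that rule are said to be so. Similar genes were the 3 with the highest r per member, leaving out gene models, clone names, small RNA genes and chemosensory receptor families. The members, lists and tests were chosen with earlier results of these data known. The alternatives were other filters, shrinkage, normalisations, the mouse number as a block, fits on the compared groups only and leaving out each array.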

Additional observations from a re-analysis of the deposited data

How the results depend on the processing

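Deviations of same-numbered mice from their group means correlated between -0.492 and 0.402 over the pairs of groups. With 2 mice a group, these values cannot settle whether the mouse number in the titles marks pairs. With the number as a replicate block limma called 0 probe sets in every comparison and in the F-test, as without it. In fits on the compared groups only, limma called 1 probe set for acupoint mice against controls and 2 for non-acupoint mice against controls. When 1 array was left out, the count of called probe sets ranged between 0 and 1607 for MPTP against control, 0 and 1453 for acupoint against MPTP, 0 and 794 for non-acupoint against MPTP, 0 and 70 for all MPTP-treated against control, and 0 and 518 for the F-test. The upper ends all came without MPTP mouse 2, when mouse 1 stands for its whole group and is assumed to vary like the others, and 1 probe set was called for all MPTP-treated mice without MPTP mouse 1. For single members, 327 of 329 values under the other alternatives kept direction and call. The exceptions were Gfra1 for acupoint against non-acupoint mice, at 0.051 with arrays centred on their medians and 0.000224 after quantile normalisation, and the cause was not tested. Bdnf and Gdnf fell under the stricter filter at the median of probe sets and have no value there, and since every measured member had 1 probe set, averaging probe sets gave no alternative. With 1 array left out, 39 member values turned in direction and 9 passed the adjusted threshold, all 9 without MPTP mouse 2. For MPTP against control the lowest and highest changes were -0.018 and 0.67 for Bdnf, -0.11 and 0.15 for Gdnf, -1.06 and 0.077 for Ntrk3, -0.60 and 1.25 for Ret. For acupoint against MPTP the lowest and highest changes were -0.55 and 0.14 for Bdnf, -0.056 and 0.21 for Gdnf, -0.00398 and 0.17 for Ntrk2, -0.15 and 0.98 for Ntrk3, -1.16 and 0.69 for Ret, -0.20 and 0.27 for Gfra2. For non-acupoint against MPTP the lowest and highest changes were -0.56 and 0.13 for Bdnf, -0.38 and 0.17 for Gdnf, -0.19 and 0.95 for Ntrk3, -0.89 and 0.96 for Ret. For acupoint against non-acupoint the lowest and highest changes were -0.034 and 0.053 for Bdnf, -0.094 and 0.46 for Gdnf, -0.11 and 0.18 for Ntrk3, -0.55 and 0.00686 for Ret, -0.20 and 0.17 for Gfra1. For acupoint against control the lowest and highest changes were -0.10 and 0.041 for Ntrk2, -0.18 and 0.033 for Ntrk3, -0.19 and 0.37 for Ret. For non-acupoint against control the lowest and highest changes were -0.36 and 0.19 for Gdnf, -0.25 and 0.034 for Ntrk3. For all MPTP-treated against control the lowest and highest changes were -0.082 and 0.10 for Gdnf, -0.019 and 0.041 for Ntrk2, -0.048 and 0.57 for Ret.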
